A study of Homo sapiens with 6 samples.

Results

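The genes described here supply the cell with amino acids and join them to transfer RNA. They are 42 genes fixed by name: 20 cytosolic aminoacyl-tRNA synthetases, 12 enzymes of amino acid synthesis and one-carbon supply, 8 plasma membrane amino acid transporters, the tRNA export receptor XPOT, and CEBPG, a transcription factor that pairs with ATF4. The array carried 61 probes for them among 41000, and each gene was read from its brightest probe, the one with the highest mean intensity over the arrays. Of the 42 genes, 40 were well above background on enough arrays to be analysed in each cell line, while SLC7A3 and SLC6A9 were not.

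Gene expression was measured on 6 two-colour Agilent arrays in SKOV3 and A2780s, both established human ovarian cancer cell lines. In SKOV3, RNA of sh-S1 and of sh-S2, each a single puromycin-selected clone carrying a lentiviral shRNA against Hic-5 (gene symbol TGFB1I1, a focal adhesion adaptor that also acts in the nucleus), was compared with RNA of 1 Ctrl clone. By the paper's methods, such Ctrl clones were mock-transduced with the same pLKO.1-puro vector carrying a scramble sequence. In A2780s, RNA of pCMV-Hic-5, a single neomycin-selected clone with a Myc-DDK-tagged Hic-5 plasmid, was compared with RNA of a Ctrl clone that received the empty vector. Each pair of RNAs was hybridized on 2 arrays with the dyes exchanged, which counts as 1 replicate, so SKOV3 has 2 replicates that share 1 Ctrl RNA and A2780s has 1 replicate. All cells were grown in serum-containing RPMI with added glutamine and pyruvate. The study asked which genes change when Hic-5 is suppressed or overexpressed.

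Each aminoacyl-tRNA synthetase attaches its own amino acid to the matching tRNAs for translation in the cytosol, while mitochondria use synthetases that are mostly encoded by other genes. When uncharged tRNA builds up or the endoplasmic reticulum is under stress, kinases phosphorylate the initiation factor eIF2, general translation slows, and the transcription factor ATF4 is made. ATF4 is known to raise transcription of many of these synthetases, transporters and serine and asparagine enzymes through a composite C/EBP-ATF element in their promoters.

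The labels were checked against TGFB1I1 and marker genes. TGFB1I1 had log2 ratios over Ctrl of 4.05 and 2.60 on the 2 pCMV-Hic-5 arrays, and of -0.16, 0.12, -0.11 and 0.28 on the 4 SKOV3 arrays. By this probe it was not lower in either RNA labelled as a knockdown, and in SKOV3 the direction rests on the labels and not on this transcript. The probe was well above background on all 4 SKOV3 arrays but dim. Its mean log2 level was 7.74 in Ctrl, 7.91 in sh-S1 and 7.63 in sh-S2, where SLC7A3, not analysed, read 6.50 in Ctrl. The paper reports choosing these clones for inhibited Hic-5 expression, checked by RT-PCR and Western blot. The knockdown-labelled RNAs also differed from Ctrl in lineage markers. All 3 epithelial markers tested, the keratins KRT8, KRT18 and KRT19, were called, with mean log2 ratios of -2.14, -3.52 and -2.55, as were 1 of 3 ovarian and Mullerian markers, PAX8 at -3.58, and 1 of 4 fibroblast markers, COL3A1 at 3.65. EPCAM and CDH1 were well above background on too few SKOV3 arrays to be tested. In A2780s, KRT18 alone of these markers was called, at 0.59, and none of the leukocyte markers tested, 3 of 4 in SKOV3 and 4 in A2780s, was called. Of the 3 endothelial markers, 0 could be tested in SKOV3, and neither of the 2 analysed in A2780s was called. Whether these RNAs come from cells that differ from Ctrl in more than the shRNA was not tested, and every SKOV3 ratio below would carry such a difference. In SKOV3 the Cy5 channel was dim, with a median net signal of 9.5 to 25.5 against 373.4 to 530.5 in Cy3. In A2780s both channels lay between 325.2 and 568.2, so the ratios of SKOV3 rest on weaker signals. An offset of 50 was added to every signal, which draws ratios of dim spots towards 0. Ratio sizes and fold thresholds are therefore not on 1 scale in the 2 lines. With Feature Extraction's processed signals the transporter median was -1.08 in SKOV3, against -0.63 here, and 0.95 in A2780s, against 0.88. The SKOV3 synthetase median was 0.19, against 0.17. How much the offset contributes was not tested.

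The promoters of the members were searched for the C/EBP-ATF element TGATGNAA on both strands, in RefSeq windows of GRCh38.p14 that run from 250 bases before to 50 bases after an annotated start of transcription. The element was found in 14 of the 33 members with a window (42.4%), against 1217 of 27305 genes in all (4.46%) and 571 of 15843 protein-coding genes (3.60%). Counted by window, it stood in 14 of 47 windows of members (29.8%) and in 1270 of 35116 windows of all genes (3.62%). The stretches of these 14 genes are given here to show the element and the bases around it. Each is written 5′ to 3′ on the strand that reads TGATGNAA, with the element in capitals and up to 16 bases on either side.
ASNS: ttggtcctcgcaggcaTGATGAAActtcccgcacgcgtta
GOT1: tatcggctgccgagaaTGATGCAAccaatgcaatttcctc
AARS: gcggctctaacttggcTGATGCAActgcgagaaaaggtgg
CARS: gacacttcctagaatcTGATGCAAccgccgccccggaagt
GARS: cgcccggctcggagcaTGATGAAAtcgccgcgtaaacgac
IARS: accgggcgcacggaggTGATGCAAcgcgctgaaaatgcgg
MARS: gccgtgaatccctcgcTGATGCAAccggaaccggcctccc
NARS: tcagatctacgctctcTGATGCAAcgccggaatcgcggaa
TARS: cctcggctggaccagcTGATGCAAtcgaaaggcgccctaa
SLC7A1: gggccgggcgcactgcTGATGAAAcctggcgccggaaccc
SLC3A2: ggagcTGATGTAAggagtcctgcacatta
SLC1A4: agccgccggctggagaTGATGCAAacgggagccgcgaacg
SLC1A5: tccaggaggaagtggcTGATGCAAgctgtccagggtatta
CEBPG: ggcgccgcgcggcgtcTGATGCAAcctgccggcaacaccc

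The sixth base was C in 10 of the 14 elements, A in 3 and T in 1, and the base after the element was C in 9. The element lay within 100 bases of the start in 12 of 14 genes and on the strand opposite to the gene in 9. In ASNS, the gene of asparagine synthetase, it began at position -68 from the start, in the window chr7:97872359-97872658 on the minus strand, shown whole because ASNS was called higher in both cell lines.
ASNS promoter window: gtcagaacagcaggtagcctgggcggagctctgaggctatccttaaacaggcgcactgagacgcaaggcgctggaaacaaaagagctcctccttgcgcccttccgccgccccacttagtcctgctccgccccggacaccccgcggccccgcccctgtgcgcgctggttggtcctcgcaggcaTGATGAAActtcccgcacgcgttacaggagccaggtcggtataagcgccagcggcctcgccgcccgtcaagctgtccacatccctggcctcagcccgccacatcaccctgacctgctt

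In A2780s, members of every role were higher in pCMV-Hic-5 than in its Ctrl. By the rule used for this line, a mean of at least 1.5-fold with both arrays in the same direction, 21 of the 40 members analysed were called higher and 0 lower, where 3.26% of the 30530 probes analysed were called higher and 1.32% lower. The median log2 ratio was 0.60 over the members and -0.01 over all probes, and both arrays were above 0 for 30 of 40 members (75.0%) against 31.2% of all probes. There is 1 clone and therefore no test of the condition in this line, and in RNA of a whole culture fewer cells with a transcript and less of it per cell cannot be told apart.

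**Figure D1:**
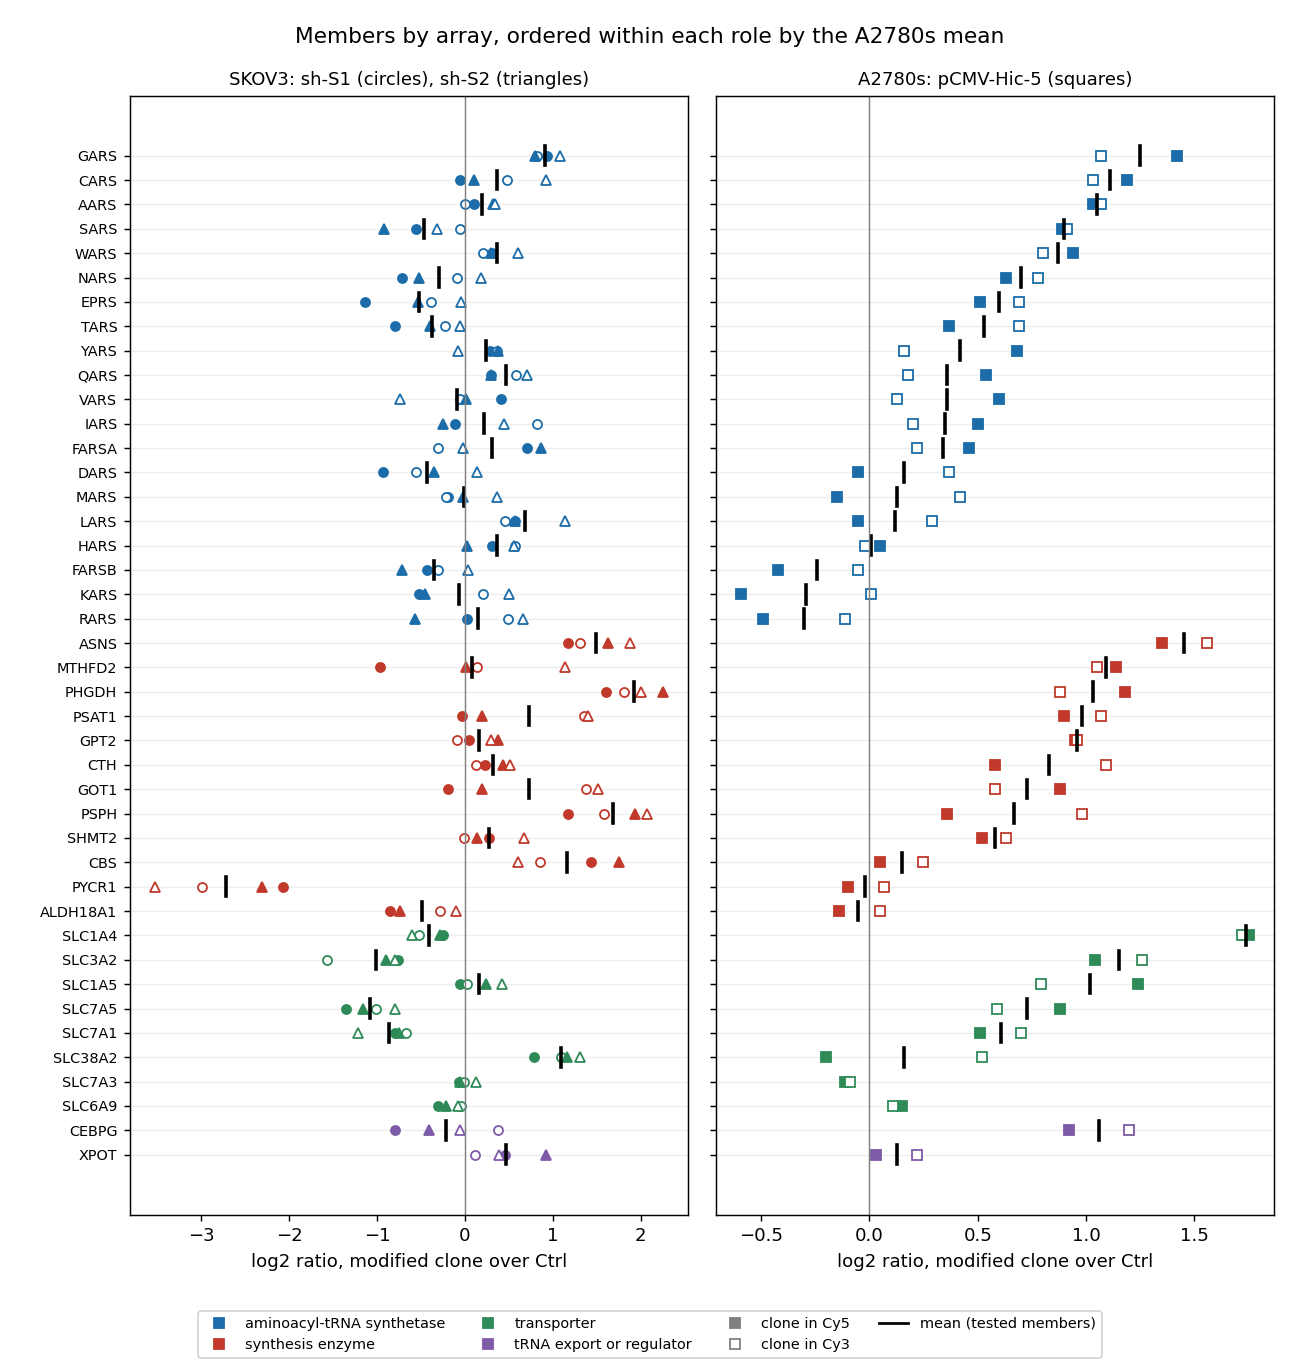
Log2 ratio of modified clone over Ctrl for all 42 members on each of the 6 arrays, SKOV3 on the left and A2780s on the right, with filled symbols for the clone in Cy5, open symbols for the clone in Cy3 and a bar at the mean of the members analysed. In A2780s most members lie to the right of 0, with SLC1A4 highest at 1.74, while in SKOV3 PHGDH, PSPH and ASNS lie to the right and PYCR1, SLC7A5 and SLC3A2 to the left.

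Among the cytosolic synthetases, 7 of 20 were called higher in pCMV-Hic-5, with a median log2 ratio of 0.36. GARS, the glycyl-tRNA synthetase, had log2 ratios of 1.42 and 1.07, a mean of 1.25 or 2.37-fold. CARS, for cysteine, had 1.19 and 1.03, and AARS, for alanine, had 1.03 and 1.07, so these 3 genes were above 2-fold on both arrays. SARS, for serine, gave 0.89 and 0.91 and WARS, for tryptophan, 0.94 and 0.80. NARS, for asparagine, gave 0.63 and 0.78, and EPRS, the fused glutamyl and prolyl synthetase, gave 0.51 and 0.69. EPRS was the smallest of the 7 at a mean of 0.60 and was not called with normexp on all spots or with Feature Extraction's processed signals, where its mean was 0.58 and 0.56.

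The other 13 synthetases did not reach the threshold and spread around a smaller shift. TARS, for threonine, stood just below it at 0.37 and 0.69, and YARS, QARS, VARS, IARS and FARSA had means between 0.34 and 0.42. DARS, MARS, LARS and HARS had means between 0.01 and 0.16. FARSB, a subunit of the phenylalanyl synthetase whose other subunit is FARSA, had -0.42 and -0.05, KARS had -0.59 and 0.01, and RARS had -0.49 and -0.11. Over all 20 cytosolic synthetases, the means ran from -0.30 for RARS to 1.25 for GARS.

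The probes of GARS and CARS each span an intron of the genomic sequence, so they read spliced transcript, and both are shown because these genes had the highest ratios among the synthetases. GARS was read at chr7:30665891-30668190 on the plus strand and CARS at chr11:3038483-3039103 on the minus strand, in hg19 as the array files give it.
GARS probe: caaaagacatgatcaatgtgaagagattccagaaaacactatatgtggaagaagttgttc
CARS probe: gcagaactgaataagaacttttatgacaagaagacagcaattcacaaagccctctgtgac

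Of the 12 synthesis enzymes, 8 were called higher in pCMV-Hic-5, with a median of 0.78. ASNS, which makes asparagine from aspartate and glutamine, had the highest values of this role, 1.35 and 1.56, a mean of 1.45 or 2.74-fold. In the serine pathway, PHGDH, its first enzyme, was at 1.18 and 0.88, PSAT1, its aminotransferase, at 0.90 and 1.07, and PSPH, the phosphatase that completes serine, at 0.36 and 0.98. MTHFD2, a mitochondrial enzyme that carries one-carbon units taken from serine, had 1.14 and 1.05, and SHMT2, which takes them, had 0.52 and 0.63 and with a mean of 0.58 did not pass 1.5-fold.

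Enzymes that link amino acids to other pools were called as well. GPT2, a mitochondrial alanine aminotransferase, had 0.95 and 0.96. GOT1, the cytosolic aspartate aminotransferase, had 0.88 and 0.58. CTH, which makes cysteine from cystathionine, had 0.58 and 1.09, whereas CBS, which makes the cystathionine, had 0.05 and 0.25. Both members of the proline pathway lay at 0, ALDH18A1 with -0.14 and 0.05 and PYCR1 with -0.10 and 0.07.

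Of the 6 transporters analysed, 5 were called higher in pCMV-Hic-5, with a median of 0.88. SLC1A4, an exchanger of alanine, serine and cysteine, had the highest ratio of all members, 1.75 and 1.72, a mean of 1.74 or 3.33-fold. SLC1A5, the related glutamine exchanger, had 1.24 and 0.79. SLC7A5 and SLC3A2, the light and heavy chains of the LAT1 exchanger for large neutral amino acids, had 0.88 and 0.59, and 1.04 and 1.26. SLC7A1, the cationic amino acid transporter for arginine and lysine, had 0.51 and 0.70. SLC38A2, a sodium-coupled carrier of small neutral amino acids, had arrays on both sides of 0, at -0.20 and 0.52. CEBPG had 0.92 and 1.20, a mean of 1.06, and was called higher, while XPOT had 0.03 and 0.22.

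The genes around the members did not all share this shift. None of the 17 mitochondrial synthetases was called in either direction, with a median of -0.06 and means from -0.41 for CARS2 to 0.46 for PARS2. The 3 scaffold proteins of the synthetase complex, AIMP1, AIMP2 and EEF1E1, had means of -0.34, 0.53 and -0.01, none called. Of 15 other amino acid enzymes 0 were called, with a median of 0.17, although both arrays were above 0 for 11 of the 15 (73.3%). Of 16 other transporters 2 were called higher and 1 lower, with a median of -0.03. The 2 were SLC7A11, the cystine/glutamate exchanger, at 2.51 and 2.78, and SLC43A1 at 0.56 and 0.87, and the lower one was SLC43A2 at -0.76 and -0.44.

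The regulators of the amino acid response stood at the other end. Of 16 regulators and markers of that response, which are no members, 15 were called higher in pCMV-Hic-5, with a median of 1.39. This list was chosen with earlier results of these data known, so the count is a description and no independent support. The paper itself names ATF3, ATF4 and DDIT3 among the upregulated nodes of this clone. ATF4 had 1.61 and 1.35, DDIT3, its partner in stress, 3.01 and 2.81, TRIB3, an inhibitor of ATF4, 1.78 and 2.81, and CHAC1, a glutathione-degrading enzyme, 2.43 and 2.18. The exception was EIF2AK4, the kinase GCN2 that senses uncharged tRNA, at 0.36 and 0.00.

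**Figure D2:**
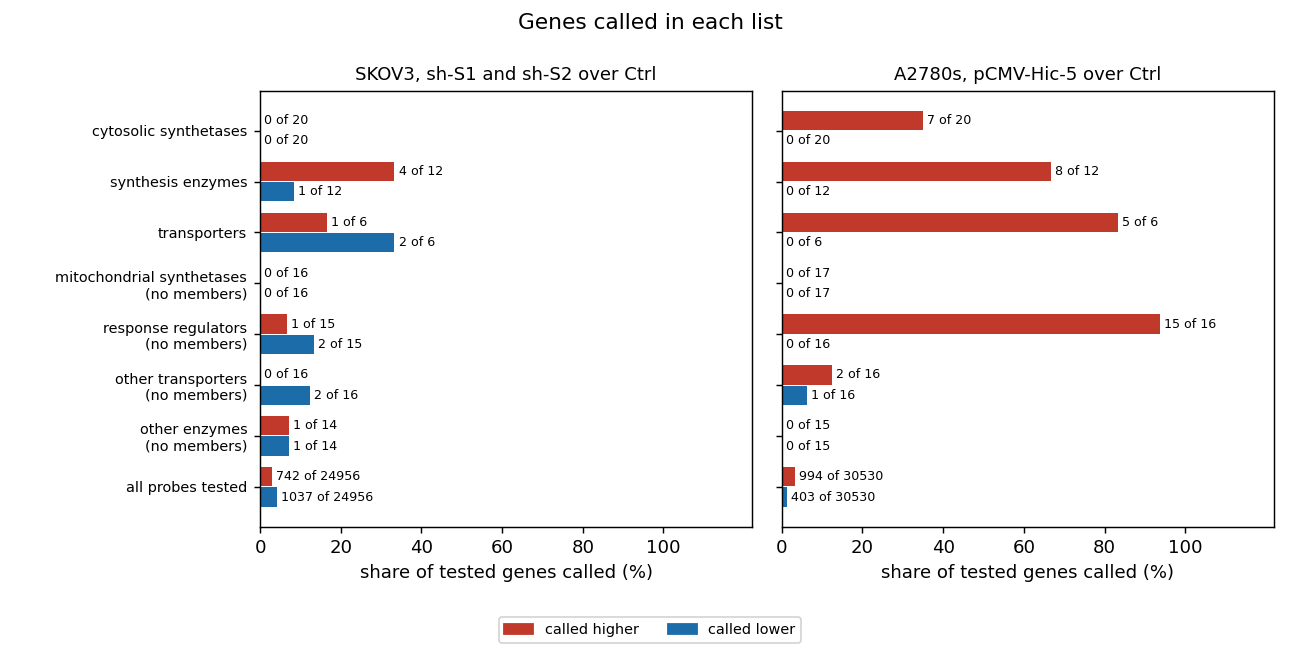
Share of the analysed genes of each list that were called higher (red) or lower (blue), in percent, in SKOV3 on the left and A2780s on the right, with the counts at the bars. In A2780s 7 of 20 synthetases, 8 of 12 synthesis enzymes, 5 of 6 transporters and 15 of 16 response regulators were called higher, against 0 of 17 mitochondrial synthetases and 994 of 30530 probes in all. All lists were chosen with earlier results of these data known.

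The promoter element was set beside these calls as a description. It was found in 11 of the 19 members with a window that were called higher in pCMV-Hic-5 (57.9%) and in 3 of the 13 that were analysed and not called (23.1%), which were IARS, MARS and TARS. Among genes that are no members, it was found in 24 of 471 called higher (5.10%) and in 334 of 11299 not called higher (2.96%). It was found in 1 of 14 mitochondrial synthetases with a window (7.14%) and in 3 of 14 response regulators (21.4%). By role, it was found in 7 of 16 synthetases, 4 of 7 transporters and 2 of 8 synthesis enzymes. The other 8 called members with a window, EPRS, SARS, WARS, PHGDH, PSAT1, MTHFD2, CTH and SLC7A5, lack these letters there, which says nothing of other sites outside them.

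**Figure D3:**
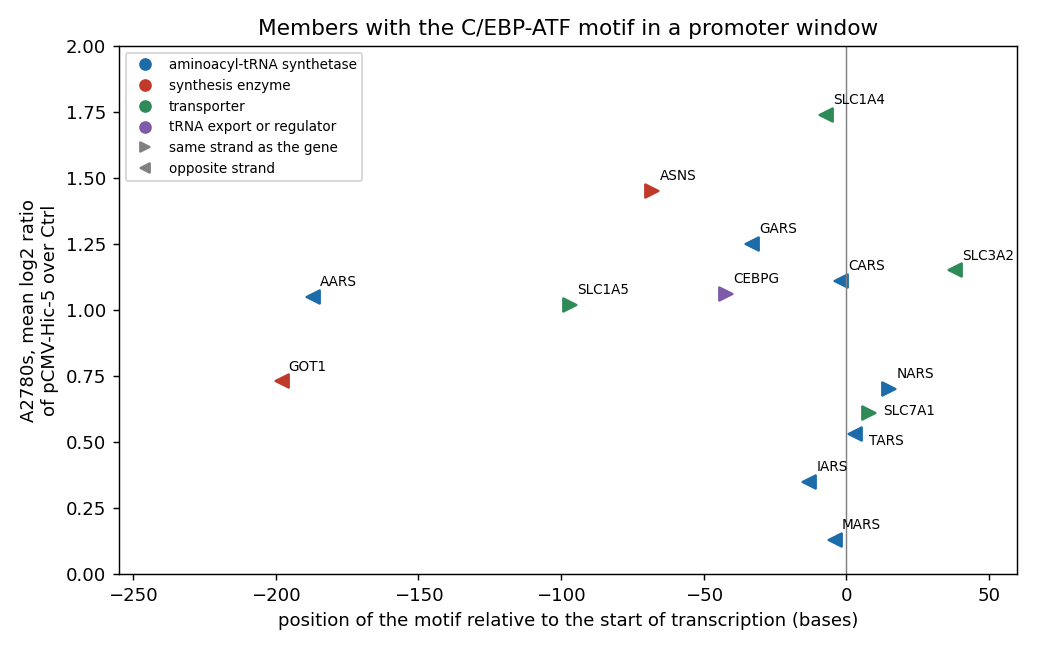
Position of the element TGATGNAA relative to the start of transcription, in bases, against the mean log2 ratio of pCMV-Hic-5 over Ctrl in A2780s, for the 14 members that hold it. Arrows to the right mark the strand of the gene and arrows to the left the opposite strand, and 12 of the 14 elements lie within 100 bases of the start.

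In SKOV3, members went both ways. In the RNAs labelled as sh-S1 or sh-S2, 5 of 40 members rose and 3 fell, with limma's adjusted p no higher than 0.05 and the change 2-fold or more, where 2.97% of the 24956 probes tested rose and 4.16% fell. At the adjusted p alone, 14 members rose and 10 fell, against 15.6% and 16.2% of all probes. The median log2 ratio was 0.18 over the members and 0.00 over all probes. The test measures the spread between 2 clones against 1 Ctrl RNA and leaves out the spread of the Ctrl and the difference between dye-swapped arrays.

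ASNS and 2 enzymes of serine synthesis, PHGDH and PSPH, rose. PHGDH had log2 ratios of 1.60 and 1.81 on the sh-S1 arrays and of 2.25 and 2.00 on the sh-S2 arrays, a mean of 1.92 ± 0.30 (SD, n = 2) or 3.77-fold, with an adjusted p of 8.13e-05 by limma. PSPH had 1.17 and 1.58 in sh-S1 and 1.94 and 2.07 in sh-S2, a mean of 1.69 ± 0.45 (SD, n = 2, limma adjusted p = 0.000362). ASNS had 1.17 and 1.31 in sh-S1 and 1.63 and 1.88 in sh-S2, a mean of 1.49 ± 0.36 (SD, n = 2, limma adjusted p = 0.000365). All 4 arrays were above 0 for each of these 3 genes, and sh-S2 was above sh-S1.

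CBS, the first enzyme from homocysteine to cysteine, also rose, with 1.43 and 0.85 in sh-S1 and 1.75 and 0.60 in sh-S2, a mean of 1.16 (limma adjusted p = 0.000195). Its arrays with the clone in Cy5 were the higher ones, and the mean of the Cy3 arrays alone was 0.73. Of the remaining enzymes, PSAT1 and GOT1 passed the adjusted p at a mean of 0.73 each (limma adjusted p = 0.0017 and 0.00258), but their ratios came from the arrays with the clone in Cy3, 1.36 and 1.40 for PSAT1 against -0.03 and 0.20 in Cy5. CTH, SHMT2 and GPT2 had means of 0.32, 0.27 and 0.16 and did not pass the test. MTHFD2 split the clones, with -0.97 and 0.14 in sh-S1 and 0.01 and 1.14 in sh-S2, a mean of 0.08 ± 0.70 (SD, n = 2).

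The proline pathway went the other way. PYCR1, which makes proline in its last step, had -2.07 and -2.99 in sh-S1 and -2.31 and -3.52 in sh-S2, a mean of -2.72 ± 0.27 (SD, n = 2) with a limma adjusted p of 1.58e-05, and was 6.60-fold lower in these RNAs than in Ctrl. It had the largest change of all members in SKOV3. ALDH18A1, which makes the precursor of proline from glutamate, passed the adjusted p with a mean of -0.49 (limma adjusted p = 0.00904), below 2-fold. Its ratios were -0.85 and -0.74 with the clone in Cy5, against -0.28 and -0.10 in Cy3. The probe of PYCR1 lies at chr17:79890331-79890390 on the minus strand of hg19. A second PYCR1 probe was well above background on too few SKOV3 arrays to be tested, so this fall rests on 1 probe.

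The transporters had a median of -0.63, and 4 of 6 were below 0 on all 4 arrays, where 4873 of the 24956 probes tested were. SLC7A5 had -1.35 and -1.01 in sh-S1 and -1.16 and -0.79 in sh-S2, a mean of -1.08 ± 0.15 (SD, n = 2, limma adjusted p = 0.000397). Its partner SLC3A2 had -0.76 and -1.57 in sh-S1 and -0.90 and -0.79 in sh-S2, a mean of -1.01 ± 0.23 (SD, n = 2, limma adjusted p = 0.000833), so both chains of the exchanger fell by about the same factor. Both stood close to the 2-fold threshold, and without sh-S1 they were at -0.98 and -0.84 and neither was called.

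SLC7A1 had a mean of -0.86 and SLC1A4 of -0.41 (limma adjusted p = 0.00125 and 0.0162), which passed the adjusted p but not 2-fold. SLC38A2 was the transporter that rose, with 0.79 and 1.09 in sh-S1 and 1.16 and 1.31 in sh-S2, a mean of 1.09 ± 0.21 (SD, n = 2, limma adjusted p = 0.00054). Without sh-S2 its mean was 0.94 and it was not called. SLC1A5 had 0.16 and did not pass the test. Beside the members, SLC7A11, which is no member, had -2.41 (limma adjusted p = 1.45e-05).

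No cytosolic synthetase passed both thresholds in SKOV3. At an unadjusted limma p of at most 0.05, 8 of 20 rose and 6 fell, where 5058 and 5203 of the 24956 probes tested did. At the limma adjusted p alone, 6 of 20 rose and 4 fell, where 15.6% and 16.2% of all probes did. The rises were GARS, LARS, QARS, HARS, CARS and WARS, with means from 0.91 for GARS to 0.36 for CARS and WARS. Second probes of LARS and HARS had 0.26 and 0.21 and did not pass (limma adjusted p = 0.0917 and 0.147). The CARS ratio came from the arrays with the clone in Cy3, 0.48 and 0.92, against -0.06 and 0.10 in Cy5. Its probe was well above background in Ctrl on only 2 of 4 arrays. GARS had 0.93 and 0.82 in sh-S1 and 0.80 and 1.08 in sh-S2, so its 4 arrays lay close together at 1.87-fold (limma adjusted p = 0.000591). The falls were EPRS, SARS, TARS and FARSB, with means from -0.52 for EPRS to -0.35 for FARSB. Second probes of FARSB and SARS had -0.08 and -0.30 and did not pass (limma adjusted p = 0.576 and 0.0716). AARS had 0.19, DARS -0.43, NARS -0.29, YARS 0.24, and the remaining synthetases, FARSA, IARS, KARS, MARS, RARS and VARS, lay between -0.09 and 0.31 without passing the test.

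XPOT had a mean of 0.47 and passed the limma adjusted p at 0.0224 without reaching 2-fold, and CEBPG had -0.22 (limma adjusted p = 0.125). The regulators of the amino acid response showed no common shift in SKOV3, with a median of -0.02, 1 of 15 called higher (DDIT4) and 2 lower (EIF2AK4 and CEBPB). ATF4 had a mean of 0.54 (limma adjusted p = 0.0839), with arrays on both sides of 0. DDIT3 and TRIB3 differed between the clones, DDIT3 with -0.19 and 0.01 in sh-S1 and 1.20 and 1.77 in sh-S2, and TRIB3 with -1.59 and -2.23 in sh-S1 and 0.43 and 0.32 in sh-S2. The 16 mitochondrial synthetases tested had a median of 0.19, and none was called. At the limma adjusted p alone 5 were up and 2 down, against 15.6% and 16.2% of all probes. At the unadjusted limma p it was 7 and 4, against 5058 and 5203 of 24956 probes.

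The ratios in the 2 cell lines were then compared gene by gene, as the pCMV-Hic-5 ratio minus the mean of the sh-S1 and sh-S2 ratios, tested by limma with the spread of the 2 SKOV3 clones, since the single A2780s clone has none of its own and was assumed to vary like them. No value here measures the spread of the A2780s clone, so these p-values hold only under that assumption. Of the 40 members, 8 had a higher ratio in pCMV-Hic-5 and 2 a lower one, with the adjusted p no higher than 0.05 and the difference 2-fold or more, where 4.57% and 3.43% of 23729 probes did. Cell line, construct, slide and the dim Cy5 channel of SKOV3 change together in this comparison and cannot be told apart.

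Transporters made up 4 of the 8. SLC3A2 and SLC1A4 differed by 2.15 each on the log2 scale (limma adjusted p = 0.00119 and 0.000559), SLC7A5 by 1.81 (limma adjusted p = 0.00155) and SLC7A1 by 1.46 (limma adjusted p = 0.004). For all 4 of these genes, every array was above 0 in A2780s and below 0 in SKOV3. PYCR1 differed by 2.71 (limma adjusted p = 0.000597) with an A2780s ratio of -0.02. CEBPG differed by 1.28, SARS by 1.37 and EPRS by 1.12 (limma adjusted p = 0.00411, 0.00622 and 0.0217). The EPRS difference was 0.98 with the processed signals (limma adjusted p = 0.084) and 0.88 without sh-S1, and was then not called, and the SLC7A1 difference was 0.69 with the mean over its probes (limma adjusted p = 0.0321), below 2-fold. By the fold alone, 7 members had a higher ratio in pCMV-Hic-5 without sh-S1 and 12 without sh-S2, which was not counted over all probes.

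The lower ones were CBS, which differed by -1.01 (limma adjusted p = 0.00956), and PSPH, by -1.02 (limma adjusted p = 0.0495). Both calls rested on values close to the thresholds. With either clone considered alone by the fold only, 4 members had a lower ratio in pCMV-Hic-5 without sh-S1 and 0 without sh-S2. All probes were not counted in that way. ASNS had ratios of 1.49 in SKOV3 and 1.45 in A2780s, with a difference of -0.04 ± 0.24 (SE, limma adjusted p = 0.936), and GOT1 a difference of 0.00 ± 0.18 (SE, limma adjusted p = 0.995). GARS differed by 0.34 ± 0.16 (SE, limma adjusted p = 0.214), and a p above the threshold does not show that the ratios of these 3 genes were alike.

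**Figure D4:**
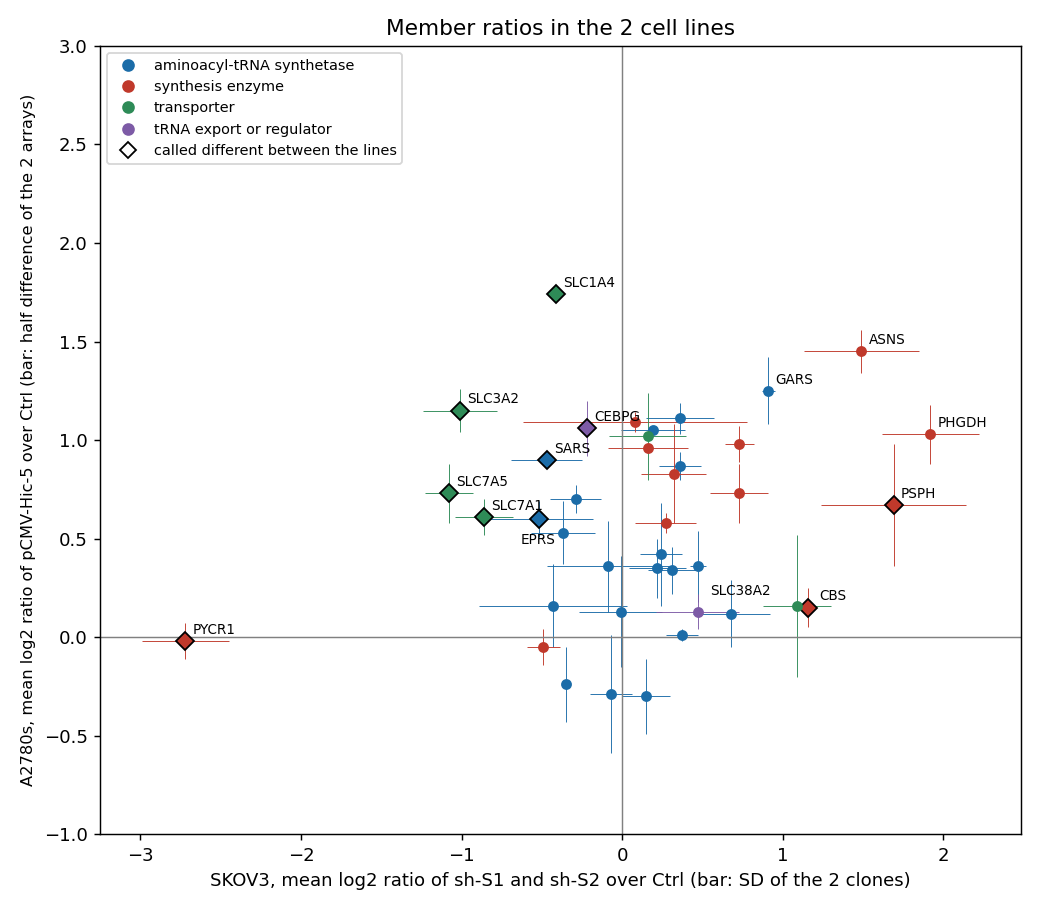
Mean log2 ratio of the 40 members in SKOV3 (horizontal, bars the SD of the 2 clones) against A2780s (vertical, bars from one array to the other), coloured by role, with diamonds for the 10 members called different between the lines. SLC7A5, SLC3A2, SLC7A1 and SLC1A4 lie at the upper left, PYCR1 at the far left near 0 on the vertical axis, and ASNS, PHGDH and PSPH at the upper right.

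Of the 42 members, 17 were read by more than 1 probe. The probes moved together for SLC3A2, with -1.01 and -0.95 in SKOV3 and 1.15 and 1.39 in A2780s, for SLC38A2, with 1.09 and 1.03 in SKOV3, and for CBS, with 1.16 and 1.33. The 2 SARS probes had 0.90 and 1.14 in A2780s. The second of them, at chr1:109760030-109760089 of hg19, is annotated to a non-coding transcript, so it may not read the same RNA. The second GOT1 probe had 0.81, 0.83, 0.95 and 1.24 on the 4 SKOV3 arrays, without the dye difference of the first. The probes did not move together for SLC7A1, whose dimmer probe had 0.07 in SKOV3 and -0.01 in A2780s, nor for SLC7A5, whose dimmer probe, across an intron at chr16:87866631-87868078 of hg19, had -0.32 and 0.24. The dimmer GPT2 probe had 0.43 in A2780s and was not called, against 0.96 for the brightest. With the mean over a gene's probes, SLC7A1, SLC7A5 and PSPH were no longer called in A2780s, at 0.30, 0.49 and 0.47, nor SLC7A5 and SLC3A2 in SKOV3, at -0.70 and -0.98. PSPH was read by 3 probes. The pair that overlaps by 47 bases, at chr7:56078786-56078845 and chr7:56078799-56078858, had 1.69 and 1.98 in SKOV3, while the other, at chr7:56079033-56079092, had 0.01. That probe shared a run of at least 20 bases with 6 probes of other genes on the array. The only ASNS probe shared such a run with 1 probe of another gene name.

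**Figure D5:**
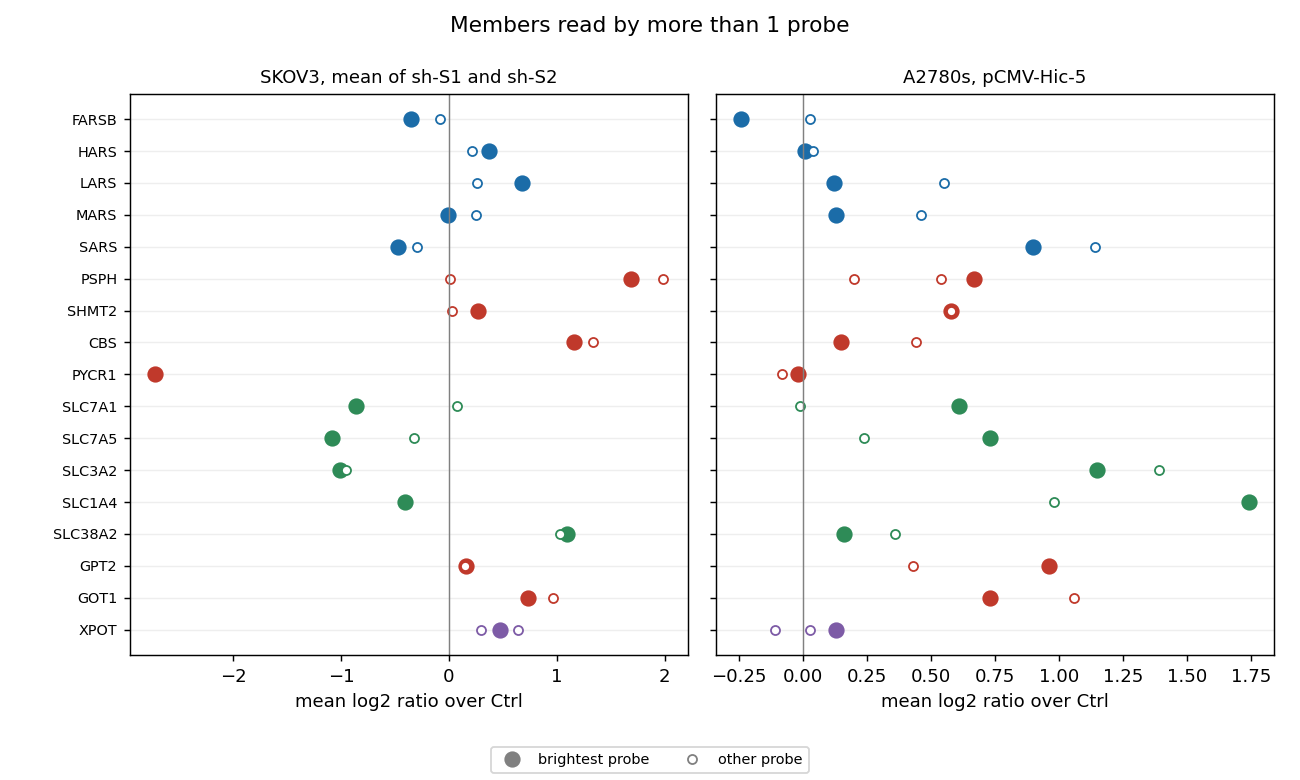
Mean log2 ratio over Ctrl of every analysed probe of the 17 members read by more than 1 probe, with filled circles for the brightest probe and open circles for the others, SKOV3 on the left and A2780s on the right. The open circles of SLC7A1 lie at 0 in both lines, and 1 of the 3 PSPH probes lies at 0 in SKOV3, apart from the others.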

How the data were processed

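The authors deposited spot intensities of 6 two-colour arrays as Agilent Feature Extraction wrote them (version 8.5.1.1 in the submitters' processing notes, 10.7.3.1 in the file headers), not normalized, and the log10 ratio of Cy5 over Cy3 from processed signals, not turned on dye-swapped arrays. The deposited series values are the same log10 ratios rounded. The study's methods name no background correction, normalization or test.

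Here the background was corrected with normexp (limma 3.58.1, R 4.3.3, offset 50), its parameters fitted without spots flagged for background. On 1 A2780s array, 39 spots with a local background over 1000 were left out, a choice made after the data were seen. Ratios were normalized by loess without control and outlier spots, spots of a probe were averaged, and every ratio was signed as modified clone over Ctrl. Probes entered when well above background in Ctrl on every array of the line or on both arrays of a modified clone. SKOV3 clone means and the difference between the lines were tested with lmFit and eBayes, adjusted by Benjamini-Hochberg over all probes analysed. Nothing says that the clones come from separate cultures beyond their names, so p-values measure the spread between these 2 clones. The rules were run on simulated data whose clones shared neither a Ctrl nor a dye effect. Those runs therefore do not show how the rules perform on these arrays. The 42 members and all lists were chosen with earlier results of these data known. All members are named; those called in either line are given by array, the others by mean or range. Dye-swapped arrays in opposite directions beyond 1.5-fold were looked for, and 0 members had them. The swaps still differed: over probes kept in both lines, swapped arrays correlated at 0.596 for sh-S1, 0.592 for sh-S2 and 0.499 for pCMV-Hic-5 (Pearson r). Arrays of sh-S1 and sh-S2 with the same dyes correlated at 0.89. Swapped arrays were averaged before the test, so their disagreement does not enter the p-values. The motif was searched in the RefSeq windows, with members matched through the array's accession or symbol. The number of arrays limits the precision.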

Additional observations from a re-analysis of the deposited data

Results flagged for a closer look

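The ratios of 10 members differed between pCMV-Hic-5 in A2780s and the SKOV3 RNAs labelled as sh-S1 or sh-S2 by limma's test of the difference, which assumes that the single A2780s clone varies like the SKOV3 clones. On the log2 scale the pCMV-Hic-5 ratio was higher by 2.71 for PYCR1, 2.15 for SLC3A2, 2.15 for SLC1A4, 1.81 for SLC7A5, 1.46 for SLC7A1, 1.37 for SARS, 1.28 for CEBPG and 1.12 for EPRS. It was lower, with a difference of -1.02 for PSPH and -1.01 for CBS. In no member did all arrays of sh-S1 go against all arrays of sh-S2. No group held the 4 samples that a search for single samples far from the others needs.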

How the results depend on the processing

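In A2780s, 18 to 22 members were called higher under the other background corrections, normalizations, filters and probe averages, 16 at 1.5-fold on each array, and 10 at 2-fold. Under these corrections, normalizations and filters, 668 to 1366 of all probes were called higher, against 994 in the main setting. With only the array that has the clone in Cy5, 1 member, KARS, was called lower. In SKOV3, 8 members rose and 5 fell with Feature Extraction's processed signals, and 5 fell with the deposited log10 ratios. Over all probes, 1971 rose and 2355 fell with the processed signals, and 1963 and 2353 with the deposited ratios. In the main setting 742 and 1037 of all probes did, so the larger member counts came with larger counts over all probes. At the adjusted p alone, 14 rose and 10 fell, against 15.6% and 16.2% of all probes, and with 1.5-fold 9 rose. With the mean over a gene's probes, 1 fell. By leave-one-out, 1 member was lower without sh-S1 and 3 without sh-S2. For settings given here without a value over all probes, no such value was counted.

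The members with a lower ratio in pCMV-Hic-5 than in SKOV3 numbered 1 with normexp on all spots, 4 with the processed signals or the deposited ratios, 0 with median centring and 0 with the mean over probes. By the fold alone they numbered 4 without sh-S1 and 0 without sh-S2. Those with a higher ratio numbered 7 to 10 under the alternatives with a test, and by the fold alone 7 without sh-S1 and 12 without sh-S2. Differences between the lines were not counted over all probes under these alternatives.

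The SKOV3 median of the transporters stayed below 0 under every alternative: -1.08 with the processed signals and with the deposited ratios, -0.77 with median centring, -0.28 without the filter on dim probes, -0.40 with the mean over probes, -0.51 on the Cy5 arrays, -0.73 on the Cy3 arrays, and -0.64 to -0.56 by leave-one-out. The SKOV3 median of the synthetases was 0.03 with median centring and -0.04 on the Cy5 arrays, so it has no settled sign, and that of the synthesis enzymes was 0.21 on the Cy5 arrays. In A2780s the medians were 0.67 for the transporters without the filter, 0.50 for the synthetases on the Cy5 array and 0.92 for the synthesis enzymes on the Cy3 array. The other background corrections, normalizations and the missing filter moved the median of all probes by no more than 0.05, and no called member changed its sign under any alternative run. The cause of these shifts was not tested. No paired analysis was possible because each clone is 1 replicate against a shared Ctrl.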
